A study of Homo sapiens with 40 samples.

Results

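The molecular circadian clock was followed through its 10 core genes in the immortalised bronchial epithelial cell line BEAS-2B, of human origin, after treatment with agonists of receptors that raise cAMP. The genes were listed by name as core clock components: ARNTL (now named BMAL1), CLOCK, PER1, PER2, PER3, CRY1, CRY2, NR1D1, NR1D2 and BHLHE40. All 10 were among the 15788 genes of the expression table, and all 10 passed the filter for testing, a mean of at least 1 TPM (a transcript abundance scaled for transcript length and library depth) over all libraries. The filter did not depend on a single treatment, since the lowest group mean of any of the 10 was 1.37 TPM, for PER2.

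The study asked how an agonist of the EP4 prostaglandin receptor changes gene expression in airway epithelium. Confluent cells of this 1 line were kept overnight in medium without serum and then treated for 2 h, in 10 groups of 4 libraries. The groups were vehicle, the PDE4 inhibitor roflumilast N-oxide (RNO, which slows the breakdown of cAMP) at 1 uM, the EP4 agonist ONO-AE1-329 (ONO) at 0.1 nM, 1 nM or 1 uM, the long-acting β2-adrenoceptor agonist vilanterol at 100 nM, and each of these 4 agonist treatments combined with RNO. The design text of the series calls 1 uM ONO and 100 nM vilanterol maximal concentrations. The labels do not name separate cultures for the 4 replicates of a group, and p-values then cover only the differences among these libraries, which may be technical. In bulk RNA, fewer cells expressing a gene and less RNA per cell cannot be told apart.

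In the clock, ARNTL and CLOCK form a pair of transcription factors that binds E-box sequences and activates the PER and CRY genes, whose proteins feed back to inhibit that pair. A second loop runs through NR1D1 and NR1D2, the REV-ERB nuclear receptors that repress ARNTL, and BHLHE40 (DEC1) is a repressor that competes at E-boxes. PER1 is also known as a gene that cAMP signalling through the transcription factor CREB induces quickly, which is how hormones and other outside signals can reset the clock of a tissue, the airway epithelium included. A single time of harvest gives the level of each gene at that time and nothing about its rhythm.

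The library totals of the deposited values lay between 956888 and 1091466. Vehicle replicate 3 stood apart: its log2 values deviated from the mean of its group with an SD of 0.209 over genes. That was the highest of the 40 libraries, followed by vehicle replicate 1 at 0.169. The calls of clock genes against vehicle are therefore given with and without vehicle replicate 3. Other comparisons with vehicle are not all given without it. Of 10 epithelial markers, KRT7, KRT8, KRT17 and KRT18 had a mean of at least 1 TPM. EPCAM and CDH1, which define most epithelia, stood at 0.265 and 0.745 TPM. The markers KRT5, KRT14, KRT19 and TP63 were not in the table analysed here. Mesenchymal markers, with 8 of 11 at a mean of at least 1 TPM and VIM at 1306 TPM, were also expressed, whereas none of 7 ciliated and secretory markers was in the table analysed here and no endothelial marker of 4 reached 1 TPM. The summed epithelial list ran from 847 to 2223 TPM over libraries and was lowest in RNO (mean 957 TPM) and highest in vilanterol (mean 1949 TPM), in the same direction as PER1. KRT17 had the widest range on that list, from 247.1 to 1510 TPM over libraries. KRT8 ran from 291.5 to 469.8 TPM, KRT18 from 237.2 to 390.7 TPM and KRT7 from 10.53 to 20.74 TPM. The sum thus followed mainly this keratin, KRT17, and not the list as a whole. The part of the marker levels in the clock gene results was not tested.

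Among the 10 genes, PER1 changed most. PER1 encodes a PERIOD protein, a repressor of the ARNTL and CLOCK pair. Across the 9 treatments it went from a level within the spread of vehicle at the lowest ONO concentration to 2.74 times vehicle with vilanterol. The vehicle libraries held 10.3, 14.7, 8.80 and 11.5 TPM (11.3 ± 2.49, mean ± SD, n = 4 here and for each group below). The libraries given RNO alone held 8.43, 12.9, 11.8 and 9.90 TPM (10.8 ± 1.99), and those given 0.1 nM ONO held 9.27, 13.4, 9.47 and 14.2 TPM (11.6 ± 2.57). All 3 of these groups overlapped. With 1 nM ONO the libraries held 12.1, 18.4, 15.2 and 14.7 TPM (15.1 ± 2.61). With 1 uM ONO they held 24.2, 23.4, 22.0 and 26.8 TPM (24.1 ± 2.05), every one above every library of the lower concentrations and of vehicle. Vilanterol gave 27.7, 35.4, 27.4 and 33.4 TPM (31.0 ± 4.04), the highest mean of the 10 groups.

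With RNO added, 0.1 nM ONO gave 14.7, 16.9, 15.8 and 17.1 TPM of PER1 (16.1 ± 1.13), and 1 nM ONO gave 11.9, 21.3, 16.9 and 21.9 TPM (18.0 ± 4.62). The combination of 1 uM ONO and RNO gave 24.6, 34.8, 27.8 and 31.6 TPM (29.7 ± 4.46). Vilanterol with RNO gave 24.2, 30.1, 25.4 and 28.3 TPM (27.0 ± 2.69). From low to high, the group means were ordered RNO, vehicle, 0.1 nM ONO, 1 nM ONO, 0.1 nM ONO with RNO, 1 nM ONO with RNO, 1 uM ONO, vilanterol with RNO, 1 uM ONO with RNO and vilanterol. Neighbouring groups overlapped at every step of that order except 1, between 1 nM ONO with RNO (highest library 21.9 TPM) and 1 uM ONO (lowest library 22.0 TPM).

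**Figure D1:**
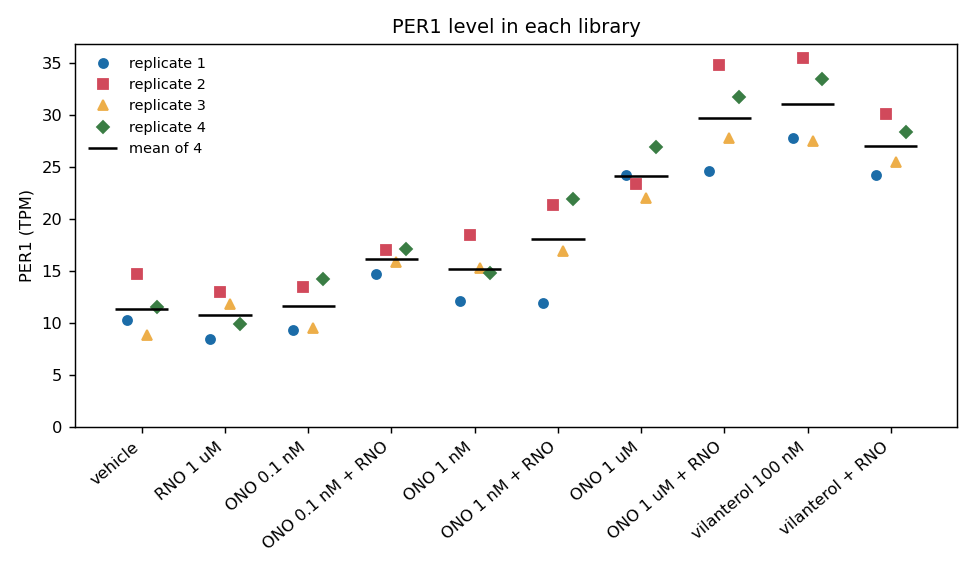
PER1 level in TPM (vertical axis, from 0) in each of the 40 libraries, by treatment group (horizontal axis). Marker shape and colour give the replicate number and the black bar the mean of 4 libraries. The 4 groups with 1 uM ONO or vilanterol sit between 22.0 and 35.4 TPM, and the 6 others between 8.43 and 21.9 TPM.

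The start regions of PER1, NR1D2 and BHLHE40 are shown here. These were the 3 clock genes with a call in any comparison over all libraries with no replicate block. The same 3 were the clock genes with a window that held the E-box CACGTG. With the replicate number as a block, ARNTL and PER2 also had a call, and their windows held no E-box. NR1D2 has 2 windows, and only that shown held E-boxes. A link between E-boxes and calls was not tested. Each window is RefSeq sequence of build GRCh38.p14, 5′ to 3′ on the strand of the gene, from 250 bases before to 50 bases after the annotated start, with E-boxes in capitals. The PER1 window lies at chr17:8152355-8152654 on the minus strand, with its E-box starting 173 bases before the start. The NR1D2 window lies at chr3:23945871-23946170 on the plus strand, with E-boxes starting 155 and 105 bases before the start. The BHLHE40 window lies at chr3:4979187-4979486 on the plus strand, with its E-box starting 245 bases before the start.
PER1: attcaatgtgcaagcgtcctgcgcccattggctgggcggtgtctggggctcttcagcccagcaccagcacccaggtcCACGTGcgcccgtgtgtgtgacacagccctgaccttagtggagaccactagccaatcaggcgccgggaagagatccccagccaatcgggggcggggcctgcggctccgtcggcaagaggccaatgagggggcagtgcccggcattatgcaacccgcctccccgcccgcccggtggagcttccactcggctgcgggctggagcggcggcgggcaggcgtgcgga
NR1D2: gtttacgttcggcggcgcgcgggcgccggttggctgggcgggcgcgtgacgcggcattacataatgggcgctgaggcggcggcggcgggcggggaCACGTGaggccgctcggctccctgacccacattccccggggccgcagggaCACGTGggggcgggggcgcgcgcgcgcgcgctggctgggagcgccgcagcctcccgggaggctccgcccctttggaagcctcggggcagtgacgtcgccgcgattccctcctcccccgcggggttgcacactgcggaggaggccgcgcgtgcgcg
BHLHE40: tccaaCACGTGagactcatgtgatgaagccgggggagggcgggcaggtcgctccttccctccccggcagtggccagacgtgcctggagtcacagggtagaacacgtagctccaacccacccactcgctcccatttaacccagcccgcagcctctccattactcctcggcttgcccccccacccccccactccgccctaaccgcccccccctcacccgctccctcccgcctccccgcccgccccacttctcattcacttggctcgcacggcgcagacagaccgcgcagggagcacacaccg
The E-box was searched in all 35116 promoter windows of the same table, both strands, and 7.26% held it. The full cAMP response element TGACGTCA, held by 1.85% of all windows, was in none of the 15 windows of the 10 clock genes, and its short form TGACG, held by 24.6%, was in windows of CLOCK, PER2, CRY1, CRY2 and NR1D2. The D-box, searched as TTATGTAA or TTACGTAA and held by 1.01% of windows, was found for PER2, PER3 and NR1D2. The AGGTCA core bound by the REV-ERB and ROR receptors, held by 13.8%, was found for ARNTL, PER1 and CRY2. The short form lies within the full element, and other matches can share bases at their ends. These matches describe letters within 300 bases and are not evidence of binding.

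Against vehicle, PER1 passed the test (limma on log2 values, Benjamini-Hochberg adjustment over all 12591 genes, adjusted p under 0.05) in 5 of 9 comparisons. The mean with 1 uM ONO was 2.13 times that of vehicle, a log2 change of 1.05 ± 0.16 (SE; adjusted p = 9.93e-06), and 0.94 without vehicle replicate 3 (adjusted p = 0.000153). With 1 uM ONO and RNO it was 2.63 times vehicle, a log2 change of 1.33 (adjusted p = 5.15e-08), and 1.23 without that replicate (adjusted p = 1.07e-06). With vilanterol the log2 change was 1.39 (adjusted p = 1.63e-08), and 1.29 without that replicate (adjusted p = 3.5e-07). For these 3 treatments and for vilanterol with RNO, the PER1 groups did not overlap vehicle. Of all tested genes, 8.38%, 14.2%, 14.9% and 14.8% did not overlap in these comparisons, in that order, in either direction. Vilanterol with RNO stood at 2.39 times vehicle, a log2 change of 1.20 (adjusted p = 3.15e-07), and 1.10 without that replicate (adjusted p = 5.82e-06).

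The lower ONO concentrations moved PER1 less, and their calls depended on the model. With 1 nM ONO and RNO, PER1 was 1.59 times vehicle, a log2 change of 0.61 (adjusted p = 0.0179), which became 0.51 without vehicle replicate 3 (adjusted p = 0.102). Without replicate 2 or 4 of the combination the adjusted p was 0.0971 and 0.11. The ranges overlapped, since replicate 1 of the combination, at 11.9 TPM, lay below vehicle replicate 2. With 0.1 nM ONO and RNO, PER1 was 1.43 times vehicle, a log2 change of 0.50 (adjusted p = 0.153), and with the replicate number as a block the adjusted p was 0.00142. The lowest library of that combination, at 14.69 TPM, lay just above the highest of vehicle, at 14.66 TPM. These groups therefore did not overlap, as for 3.96% of all tested genes. Without vehicle replicate 3 the log2 change was 0.40 (adjusted p = 0.575, and 0.0159 with the block), and without vehicle replicate 2 this comparison was called (adjusted p = 0.0404). With 1 nM ONO alone it was 1.34 times vehicle, a log2 change of 0.40 (adjusted p = 0.264, and 0.0104 with the block). Without vehicle replicate 3 the change with 1 nM ONO alone was 0.30 (adjusted p = 0.81, and 0.0723 with the block). RNO alone (log2 change -0.06, 95% interval -0.38 to 0.26, adjusted p = 0.893) and 0.1 nM ONO alone (0.03, interval -0.29 to 0.35, adjusted p = 0.981) gave no call for PER1.

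The call of each clock gene can be read against the share of all tested genes called in the same comparison. Against vehicle, no clock gene of 10 was called with RNO, where 0.238% of all genes were, with 0.1 nM ONO (0% of all genes), with 0.1 nM ONO and RNO (1.12%) or with 1 nM ONO (1.01%). In those 4 comparisons 2, 0, 2 and 2 clock genes had an unadjusted limma p under 0.05. The share of all genes at that unadjusted threshold is not given, here or below. Counts at it, also for the further genes, therefore cannot be read as an excess. With the replicate number as a block, 1, 0, 2 and 2 clock genes passed after adjustment, beside 5.11%, 0.0794%, 5.12% and 8.47% of all genes. Without vehicle replicate 3 as well, 0, 0, 1 and 0 passed. No share of all genes is given for that setting, here or below, so the fall cannot be set against all genes. PER1 was the 1 clock gene called with 1 nM ONO and RNO (3.45% of all genes), with 1 uM ONO (7.21%) and with vilanterol (17.7%). PER1 and NR1D2 were the 2 called with 1 uM ONO and RNO (15.8%) and with vilanterol and RNO (18.4%). The median log2 change of the 10 clock genes lay between -0.01 and 0.05 in the 9 comparisons, beside a median between -0.01 and 0.00 for all tested genes. Thus, with no block, 1 or 2 of 10 were called in the comparisons with most calls, where the share for all genes was up to 18.4%. With the block, 2 were called with 1 uM ONO, 3 with 1 uM ONO and RNO and 3 with vilanterol. The shares of all genes there were 16.6%, 29.7% and 31.2%. With vilanterol and RNO, 3 were higher and 1 lower, beside 32.0%. Without vehicle replicate 3 as well, 1 passed with 1 uM ONO and 3 with 1 uM ONO and RNO. In that setting, 3 were higher and 1 lower with vilanterol, alone or with RNO.

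**Figure D2:**
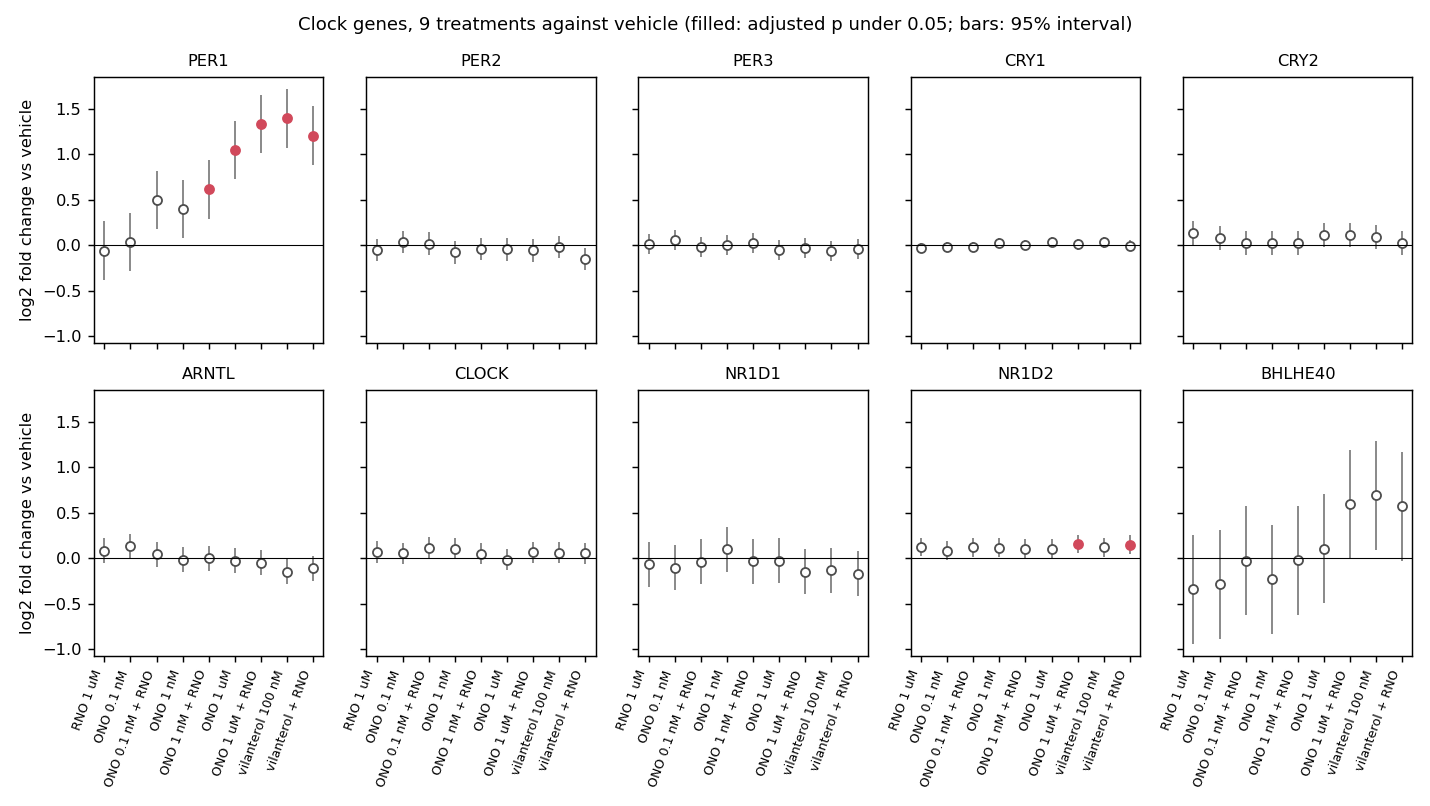
Log2 fold change against vehicle (vertical axis, same scale in every panel) of each of the 10 clock genes in the 9 treatments (horizontal axis), with 95% intervals from limma. Filled points passed at an adjusted p under 0.05. PER1 rises to 1.39 with vilanterol, NR1D2 has 2 filled points near 0.15, and the wide intervals of BHLHE40 reach from -0.94 to 1.29.

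Adding RNO to an agonist moved PER1 by amounts that the test did not call. PER1 with 0.1 nM ONO was 1.39 times higher when RNO was present, a log2 change of 0.47 (adjusted p = 0.329, and 0.00405 with the replicate number as a block). All 4 libraries of that combination lay above all 4 of 0.1 nM ONO alone, where 4.06% of all tested genes did not overlap. The same addition gave log2 changes of 0.21 at 1 nM ONO (95% interval -0.11 to 0.53), 0.28 at 1 uM ONO (-0.04 to 0.60) and -0.19 with vilanterol (-0.51 to 0.13). With vilanterol, PER1 was lower in the presence of RNO in 4 of 4 replicate numbers. No clock gene was called in these 4 comparisons, where 0.723%, 0.238%, 0.604% and 0% of all genes were, in the order 0.1 nM, 1 nM and 1 uM ONO and vilanterol. At an unadjusted limma p under 0.05 there were 1, 0, 0 and 1 clock genes.

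The interaction of an agonist with RNO is the agonist's log2 change in the presence of RNO minus its log2 change without. For PER1 it was 0.53 ± 0.22 (SE) at 0.1 nM ONO (adjusted p = 0.629, and 0.0364 with the block) and 0.63 without vehicle replicate 3 (adjusted p = 0.495, and 0.0114 with the block). It was 0.27 at 1 nM ONO (95% interval -0.18 to 0.73), 0.34 at 1 uM ONO (-0.11 to 0.80) and -0.13 with vilanterol (-0.58 to 0.32). No clock gene was called for an interaction, where 0.135%, 0%, 0.0635% and 0.00794% of all genes were, and 1, 0, 0 and 1 had an unadjusted limma p under 0.05. BHLHE40 had an interaction of 0.83 at 1 uM ONO (95% interval -0.02 to 1.67, adjusted p = 0.642). Thus, PER1 with RNO and 0.1 nM ONO was called as more than the sum of the 2 log2 changes with the block only.

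Set against RNO alone, which shares the inhibitor, PER1 was 1.67 times higher with 1 nM ONO and RNO (log2 change 0.67, adjusted p = 0.0135), 2.76 times with 1 uM ONO and RNO (1.39, adjusted p = 2.33e-08) and 2.51 times with vilanterol and RNO (1.26, adjusted p = 1.38e-07). With 0.1 nM ONO and RNO it was 1.50 times higher (log2 change 0.56, adjusted p = 0.135, and 0.00061 with the block), and none of the libraries overlapped. In that comparison 3.62% of all tested genes did not overlap. Of the 10 clock genes, 0, 1, 2 and 2 were called in these 4 comparisons in order of concentration with vilanterol last, beside 0.627%, 1.68%, 12.0% and 15.5% of all genes. The PER1 call with 1 nM ONO and RNO was lost without replicate 2 or 4 of that group (adjusted p = 0.0948 and 0.104) or without RNO replicate 1 or 4 (0.102 and 0.0563). In the first of the 4 comparisons, 1 clock gene had an unadjusted limma p under 0.05. PER1 was the gene called with 1 nM ONO, and PER1 and BHLHE40 were those called with 1 uM ONO and with vilanterol.

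Between ONO concentrations, the step from 1 nM to 1 uM raised PER1 1.59 times (log2 change 0.65, adjusted p = 0.0153), and in the presence of RNO 1.65 times (0.72, adjusted p = 0.00341), with no overlap in either case. For that step, 6.35% of all tested genes did not overlap without RNO and 9.02% with it. The first of these calls was lost without replicate 1 of 1 nM ONO or replicate 4 of 1 uM ONO (adjusted p = 0.104 and 0.0689). The step from 0.1 to 1 nM gave a PER1 log2 change of 0.37 (95% interval 0.05 to 0.69, adjusted p = 1.0, and 0.0646 with the block), which was called with the block and without vehicle replicate 3 (adjusted p = 0.0366). In the presence of RNO it gave 0.11 (-0.21 to 0.43). PER1 was the 1 clock gene called in each step to 1 uM, beside 2.11% of all genes without RNO and 3.99% with it. None was called in the steps from 0.1 to 1 nM, beside 0.318% without RNO and 0% with it, where 2 and 0 clock genes had an unadjusted limma p under 0.05.

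Both agonists at their maximal concentrations were compared directly, at 1 uM for ONO and 100 nM for vilanterol. PER1 with ONO was 0.777 times its level with vilanterol, a log2 difference of -0.35 (95% interval -0.67 to -0.03, adjusted p = 0.408, and 0.0277 with the replicate number as a block). All 4 ONO libraries, at most 26.8 TPM, lay below all 4 vilanterol libraries, at least 27.4 TPM. The share of all tested genes without overlap was 6.86%. In the presence of RNO the log2 difference of PER1 was 0.13 (interval -0.19 to 0.45) and the groups overlapped. No clock gene was called in either comparison, beside 2.14% and 0% of all genes, and 1 and 0 had an unadjusted limma p under 0.05.

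The other PERIOD and the CRYPTOCHROME genes, whose proteins join PER1 in the repressing complex, showed small differences. PER2 was the least abundant of the 10 genes, with 1.30 TPM in its lowest library, a median of 1.56 and 1.92 in its highest. Its vehicle libraries held 1.70, 1.84, 1.39 and 1.63 TPM, and those with vilanterol and RNO held 1.30, 1.34, 1.52 and 1.34 TPM, its lowest group, with 1 library inside the vehicle range. PER2 there was 0.838 times vehicle, a log2 change of -0.15 (adjusted p = 0.0821, and 0.037 with the block), and -0.20 without vehicle replicate 3 (adjusted p = 0.0265). Over the 9 treatments, the log2 change of PER2 ran from -0.15 to 0.03, opposite in sign to that of PER1 with vilanterol and RNO.

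PER3 held between 5.99 and 7.52 TPM over the 40 libraries, with log2 changes against vehicle from -0.06 to 0.05 and 95% intervals within -0.17 to 0.16. PER3 has a processed pseudogene, and how reads were divided between such copies is not given in the sources used here. CRY1 was the steadiest of the 10, between 33.2 and 36.7 TPM, and its highest group mean was 1.05 times its lowest. The intervals of its log2 changes against vehicle stayed within -0.09 to 0.09. CRY2, less abundant than CRY1, held between 2.99 and 4.04 TPM, and its log2 changes of 0.02 to 0.13 were positive in 9 of 9 treatments with intervals from -0.11 to 0.26. PER3, CRY1 and CRY2 were called in none of the 27 comparisons, with or without the block over all libraries. With the block and without vehicle replicate 3, PER3 with vilanterol had a log2 change of -0.12 against vehicle and was called (adjusted p = 0.0261).

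ARNTL and CLOCK, the activating pair, were not called in any of the 27 comparisons of the model without a block. ARNTL had a median of 3.21 TPM over libraries. Its vehicle libraries held 3.31, 3.04, 3.08 and 3.46 TPM, and those with vilanterol 3.33, 2.76, 2.26 and 2.95 TPM, which overlapped. The log2 change of ARNTL ran from 0.13 with 0.1 nM ONO to -0.15 with vilanterol (95% interval -0.29 to -0.01, adjusted p = 0.132). Against RNO alone, whose libraries held 3.71, 3.30, 3.30 and 3.57 TPM, vilanterol with RNO gave 2.97, 3.30, 2.86 and 2.57 TPM of ARNTL, a log2 change of -0.19 (adjusted p = 0.0527). That comparison holds no vehicle library, but its adjusted p was 0.0476 when vehicle replicate 3 was left out of the shared model. ARNTL overlapped there at a single library of the combination, replicate 2, without which the comparison was called (adjusted p = 0.0222).

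CLOCK held 9.19, 8.999, 6.87 and 8.39 TPM in vehicle, where the value of replicate 3 was the lowest of all 40 libraries. The median of CLOCK over libraries was 8.76 TPM and its highest library held 9.68 TPM. Its log2 changes against vehicle lay between -0.02 and 0.11, within 95% intervals from -0.13 to 0.23. Without vehicle replicate 3 the log2 changes of CLOCK ran from -0.10 with 1 uM ONO to 0.03 with 0.1 nM ONO and RNO, and in 6 of 9 treatments a positive change turned negative. No comparison of CLOCK with vehicle was called, with or without that library. In the step from 1 nM to 1 uM ONO, CLOCK had a log2 change of -0.12 (95% interval -0.24 to -0.0040, adjusted p = 0.552, and 0.223 with the block), which was called with the block and without vehicle replicate 3 (adjusted p = 0.0232).

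NR1D1 and NR1D2, the REV-ERB receptors of the second loop, differed in level and in pattern. NR1D1 stood at a median of 2.35 TPM, and NR1D2 at 46.5 TPM. NR1D2 in vehicle held 48.6, 41.4, 39.2 and 43.1 TPM (43.1 ± 4.00), the lowest mean of the 10 groups and the widest spread among them. With 1 uM ONO and RNO it held 50.5, 48.5, 47.5 and 45.6 TPM (48.0 ± 2.04), and with vilanterol and RNO 49.4, 48.1, 48.9 and 44.6 TPM (47.8 ± 2.15). In both, only vehicle replicate 1 reached into the treated range. NR1D2 was 1.12 times vehicle with 1 uM ONO and RNO, a log2 change of 0.16 (adjusted p = 0.0293), and 0.11 without vehicle replicate 3 (adjusted p = 0.166). With vilanterol and RNO it was 1.11 times vehicle, a log2 change of 0.15 (adjusted p = 0.0349), and 0.11 without that replicate (adjusted p = 0.187). The first call of NR1D2 was also lost without vehicle replicate 2 (adjusted p = 0.0677) or replicate 1 or 2 of the treated group (0.0988 and 0.0693). The second was also lost without vehicle replicate 2 or 4 (0.0812 and 0.0547) or replicate 1, 2 or 3 of the treated group (0.092, 0.0757 and 0.09). Without vehicle replicate 1, NR1D2 was called with 1 nM ONO and RNO (adjusted p = 0.0499), 1 uM ONO (0.0294) and vilanterol (0.00763).

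All 9 treatments stood above vehicle for NR1D2, and these 9 comparisons share the same 4 vehicle libraries. With the replicate number as a block, NR1D2 passed against vehicle with RNO (adjusted p = 0.028), 0.1 nM ONO and RNO (0.0232), 1 nM ONO (0.0228), 1 uM ONO (0.0236) and vilanterol (0.00502). With the block and without vehicle replicate 3, these adjusted p became 0.178, 0.179, 0.162, 0.171 and 0.0484. The 2 calls of NR1D2 made with no block, with 1 uM ONO and RNO and with vilanterol and RNO, also passed with it. Both still passed with the block when vehicle replicate 3 was left out. Against RNO alone, the log2 change of NR1D2 was 0.03 with 1 uM ONO and RNO (95% interval -0.07 to 0.14) and 0.03 with vilanterol and RNO (-0.08 to 0.13). NR1D1 in vehicle held 3.43, 2.73, 1.91 and 2.34 TPM (2.60 ± 0.644), and its log2 changes ran from -0.17 to 0.10 with 95% intervals from -0.42 to 0.34. NR1D1 was negative in 8 of 9 treatments and was not called in any comparison.

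BHLHE40, the DEC1 repressor, was the other gene with large differences between groups, and they were matched by differences between replicate numbers. Vehicle held 56.6, 50.8, 26.5 and 34.5 TPM (42.1 ± 14.0), and RNO held 37.3, 38.3, 26.3 and 26.6 TPM (32.1 ± 6.56), the lowest mean. With 1 uM ONO it held 71.7, 41.1, 28.5 and 42.3 TPM (45.9 ± 18.3), and with RNO added 88.2, 70.1, 39.0 and 58.3 TPM (63.9 ± 20.7). Vilanterol gave 107, 68.7, 45.6 and 56.0 TPM (69.3 ± 26.8), and vilanterol with RNO 96.3, 61.4, 42.0 and 53.2 TPM (63.2 ± 23.4). Replicate 3 was the lowest library of BHLHE40 in 10 of 10 groups, and replicate 1 the highest in 7 of 10.

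Against vehicle, BHLHE40 overlapped in every comparison and was not called: the log2 change was 0.69 ± 0.29 (SE) with vilanterol (adjusted p = 0.103), 0.59 with 1 uM ONO and RNO (adjusted p = 0.178) and 0.57 with vilanterol and RNO (adjusted p = 0.187). With the replicate number as a block the adjusted p were 4.82e-05, 0.000425 and 0.000568, and without vehicle replicate 3 as well 0.00036, 0.00246 and 0.00304. Without that replicate and with no block the log2 changes of BHLHE40 were 0.50, 0.40 and 0.38. Within each replicate number, BHLHE40 with vilanterol was 1.35 to 1.89 times vehicle, with 1 uM ONO and RNO 1.38 to 1.69 times, and with vilanterol and RNO 1.21 to 1.70 times, so all 4 numbers moved the same way.

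Against RNO alone, BHLHE40 was called with 1 uM ONO and RNO, at 1.99 times (log2 change 0.93, adjusted p = 0.0318), and with vilanterol and RNO, at 1.97 times (0.91, adjusted p = 0.0297), in both cases without overlap. Among all tested genes, 15.1% and 17.6% did not overlap in these comparisons. The first call of BHLHE40 was lost without RNO replicate 3 or 4 (adjusted p = 0.0932 and 0.0964) or replicate 1, 2 or 4 of the treated group (0.13, 0.0883 and 0.0536). The second was lost without RNO replicate 3 or 4 (0.0854 and 0.0873) or replicate 1 or 2 of the treated group (0.144 and 0.0606). The addition of RNO to 1 uM ONO gave a log2 change of 0.49 in BHLHE40 (adjusted p = 0.828, and 0.0194 with the block). The step from 1 nM to 1 uM ONO in the presence of RNO gave 0.62 (adjusted p = 0.358, and 0.00071 with the block). BHLHE40 with 1 uM ONO was 0.662 times its level with vilanterol, a log2 difference of -0.59 (adjusted p = 0.497, and 0.00177 with the block).

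**Figure D3:**
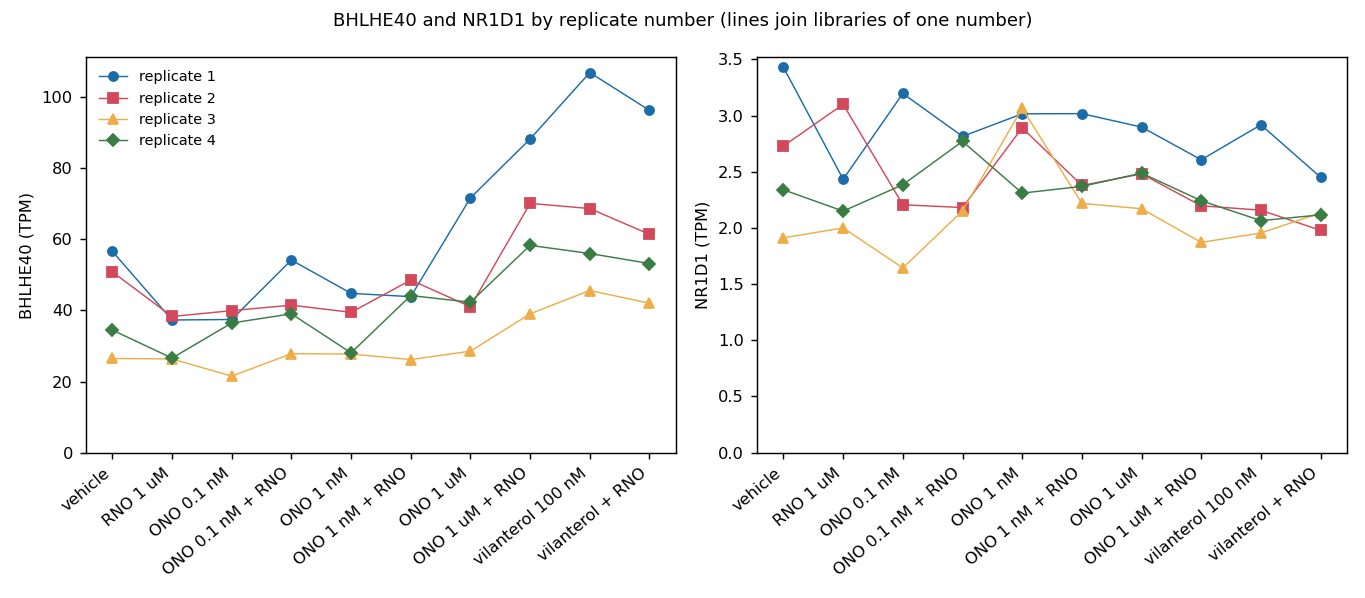
BHLHE40 (left) and NR1D1 (right) in TPM (vertical axes, from 0) by treatment group (horizontal axis), with a line for each replicate number. Replicate 3 of BHLHE40 is lowest in 10 of 10 groups and replicate 1 of NR1D1 is highest in 8 of 10, while BHLHE40 is higher with vilanterol than with vehicle in all 4 numbers.

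How much of each clock gene's variation lay between treatments and how much between replicate numbers was set out as shares of its total sum of squares on the log2 scale. For PER1 87.4% lay between the 10 groups and 8.06% between the 4 replicate numbers. Both shares are of the same total, so a large share between groups leaves less for the numbers. The replicate block still lowered the SE of the PER1 log2 change with vilanterol against vehicle from 0.158 to 0.099. For BHLHE40 the shares were 47.3% and 44.2%, for NR1D2 30.7% and 43.5%, for NR1D1 19.4% and 46.1%, and for CRY1 34.0% and 41.0%. The medians over all tested genes were 26.0% between groups and 24.9% between numbers. ARNTL stood at 48.8% between groups and 17.1% between numbers, and PER2 at 35.4% and 15.5%. Both lay far below PER1 in the share between groups. ARNTL, CLOCK, NR1D1, NR1D2 and BHLHE40 had their highest mean over 10 libraries in replicate 1, at 3.38, 8.99, 2.88, 49.2 and 63.7 TPM. PER1, PER2, PER3, CRY1 and CRY2 had their lowest mean there, at 16.7, 1.47, 6.39, 34.16 and 3.37 TPM, with replicate 3 of CRY1 close by at 34.17 TPM.

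**Figure D4:**
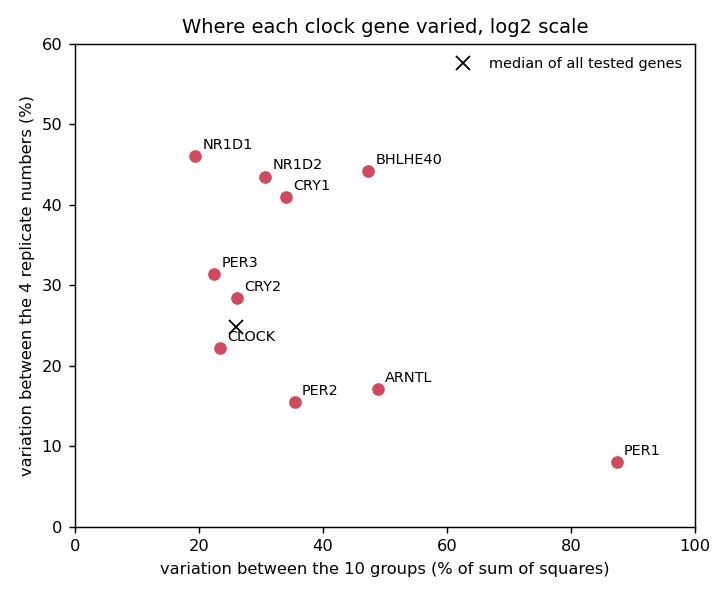
Share of each clock gene's sum of squares (log2 scale) between the 10 groups (horizontal axis, percent) and between the 4 replicate numbers (vertical axis, percent), with the median of all tested genes as a cross. PER1 lies far to the right at 87.4%, and NR1D1, BHLHE40, NR1D2 and CRY1 lie above 40% on the vertical axis.

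The genes with group means most like those of PER1 were sought among 769 genes whose group means spanned at least 0.5 on the log2 scale. Over the 10 group means, the highest Pearson correlations with PER1 were those of CSRP1 (0.996), FAM167A (0.996), ABL1 (0.996), KRT17 (0.994) and CRISPLD2 (0.994). These are descriptions over 10 points that share libraries and a treatment order. From vehicle to vilanterol, the mean of CRISPLD2 went from 2.16 to 25.4 TPM and that of KRT17, a keratin on the epithelial marker list, from 307 to 1323 TPM.

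Around the core, 31 of 38 further clock-linked genes were tested: kinases and ubiquitin ligases acting on PER and CRY proteins, cofactors, and genes under clock control. Of these 31, 1 was higher and none lower than vehicle with 1 nM ONO and RNO, 3 and 0 with 1 uM ONO, 7 and 2 with 1 uM ONO and RNO, 7 and 2 with vilanterol, and 6 and 2 with vilanterol and RNO, each beside the shares of all genes given above. None was called with RNO, 0.1 nM ONO, 0.1 nM ONO with RNO or 1 nM ONO, where 4, 3, 5 and 3 had an unadjusted limma p under 0.05. With the replicate number as a block, 3, 0, 5 and 6 of the 31 were called in these 4 comparisons, and 0, 0, 2 and 2 without vehicle replicate 3 as well. The block gave 8 calls with 1 uM ONO, 14 with 1 uM ONO and RNO, 13 with vilanterol and 15 with vilanterol and RNO, beside 16.6%, 29.7%, 31.2% and 32.0% of all genes. The counts include RORA, which had a mean of 1.02 TPM over all libraries and 0.839 TPM in vehicle and so passed the filter through its treated groups. The list's median log2 change with vilanterol was 0.06, beside -0.01 for all tested genes.

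NFIL3 (E4BP4), a repressor that acts at D-boxes, held 14.0, 13.1, 10.7 and 10.8 TPM in vehicle and 31.1, 28.2, 22.7 and 27.0 TPM with vilanterol, with no overlap. Between vilanterol and vehicle, also used for KLF9 and CIART below, 14.9% of all tested genes did not overlap. NFIL3 rose 2.24 times (log2 change 1.10, adjusted p = 1.24e-08), and 1.79 times with 1 uM ONO (0.79, adjusted p = 2.01e-05). KLF9, a Krüppel-like factor also known as a glucocorticoid target, held 5.86, 6.51, 4.13 and 5.37 TPM in vehicle and 15.1, 13.9, 9.70 and 11.1 TPM with vilanterol. KLF9 rose 2.28 times without overlap (log2 change 1.05, adjusted p = 2.96e-06), and 1.71 times with 1 uM ONO (0.68, adjusted p = 0.00311). CSNK1E, a casein kinase that phosphorylates PER proteins, held 53.0, 59.8, 56.4 and 54.3 TPM in vehicle and 77.1, 80.0, 79.8 and 82.5 TPM with vilanterol, 1.43 times (log2 change 0.51, adjusted p = 1.76e-09). The calls of NFIL3, KLF9 and CSNK1E with 1 uM ONO and vilanterol also passed without vehicle replicate 3.

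SIRT1, a deacetylase that acts on clock proteins, rose 1.59 times with vilanterol, from 15.3 ± 1.86 to 24.4 ± 3.08 TPM (adjusted p = 0.0001). RORA, a nuclear receptor that activates ARNTL at the sites REV-ERB receptors repress, held 0.940, 0.869, 0.626 and 0.920 TPM in vehicle and 1.10, 1.29, 1.27 and 1.11 TPM with vilanterol. With no filter, over all 15788 genes, the log2 change of RORA was 0.26 (adjusted p = 0.000191). CREBBP, a coactivator of CREB, was 1.24 times vehicle (log2 change 0.31, adjusted p = 0.0138), a call lost without vehicle replicate 3 (0.13, adjusted p = 0.114). In the other direction, CIART (CHRONO), a repressor of the ARNTL and CLOCK pair, held 7.01, 6.01, 5.12 and 5.78 TPM in vehicle and 4.08, 3.80, 2.31 and 4.35 TPM with vilanterol. CIART fell to 0.608 times vehicle without overlap (log2 change -0.61, adjusted p = 0.000559). CIPC, another inhibitor of CLOCK, fell to 0.775 times vehicle (log2 change -0.30, adjusted p = 0.00358). The calls of SIRT1, CIART and CIPC with vilanterol also passed without vehicle replicate 3.

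**Figure D5:**
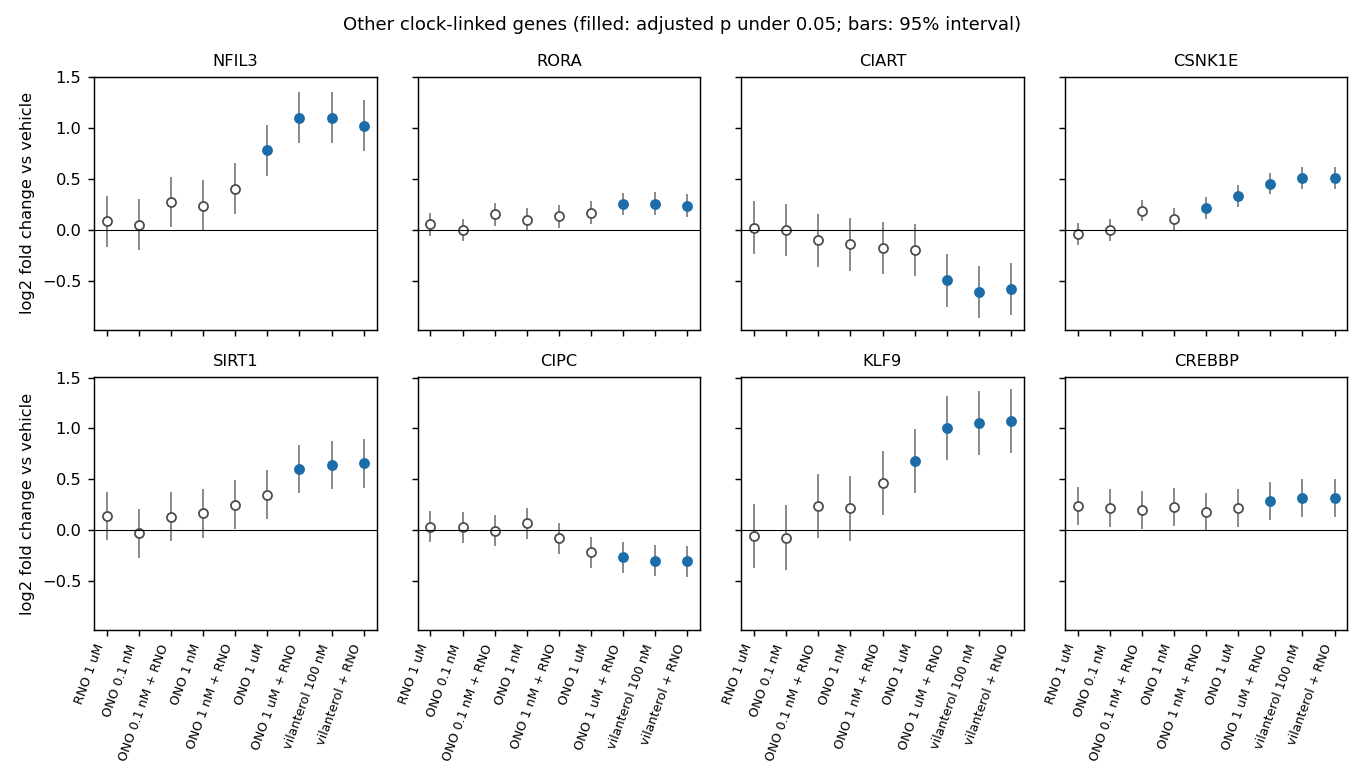
Log2 fold change against vehicle (vertical axis, same scale in every panel) of the 8 further clock-linked genes called in at least 3 of the 9 treatments (horizontal axis), with 95% intervals from limma. Filled points passed at an adjusted p under 0.05. NFIL3 and KLF9 reach 1.10 and 1.07, and CIART and CIPC lie below 0 in the groups with filled points.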

How the data were processed

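RNA was measured in 40 BEAS-2B libraries, in 10 groups of 4 taken from the sample labels. Directional poly(A) libraries were made, per the labels' protocols. Per the submitters' processing notes, reads passed through bcl2fastq (2.18.0.12), kallisto and sleuth on GRCh37 or hg19, the last 2 tools without a version. As deposited by the authors, the table holds a signal per gene, TPM normalised between libraries, whose totals are not equal, so it is called TPM with that adjustment understood. No counts were analysed, so depth is unknown and counting error is not given. The study was sequenced across several kits, and the labels do not tie a library to a kit, so no within-kit value is given.

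Values were taken as log2(value + 1), which understates the fold of low genes. Genes averaging 1 TPM or more, 12591 in all, were fitted with limma 3.58.1 (R 4.3.3, data.table, version 1.17.8), 1 mean per group over all libraries, 30 residual degrees of freedom and a variance trend. Benjamini-Hochberg adjustment ran over all genes within each of 27 comparisons. A fold is the ratio of 2 group means. The script was tested on simulated data. The clock genes and lists were chosen with earlier results of these data known. Further clock genes were named if called in at least 3 of the 9 comparisons with vehicle, and likeness was sought for the core genes called in as many. Promoter windows were taken from RefSeq, GRCh38.p14, and all 10 genes matched by symbol or synonym. No library was identical to another.

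Replicate numbers come from the labels. Libraries of the same number deviated together from their group means: the median correlation over genes was 0.259, beside -0.0846 for different numbers, and all 4 correlations were over 0.1 in 39 of 45 pairs of groups. The exceptions among compared groups were vehicle with 1 nM ONO and RNO, RNO with vilanterol and RNO, and, within an interaction, RNO with 1 uM ONO. Alternatives were the pseudocount, filters, rescaling, library weights, the replicate block, only the groups compared, and each library left out.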

Additional observations from a re-analysis of the deposited data

Results flagged for a closer look

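A single library stood far from the other 3 of its group in 2 of the 100 combinations of a clock gene and a group, by Dixon's criterion for 4 samples. Chance alone marks about 1 in 20. PER2 with 1 uM ONO and RNO was 1.70 TPM in replicate 2, and 1.46 to 1.50 TPM in the others. PER3 with 1 nM ONO was 6.15 TPM in replicate 1, and 6.99 to 7.08 TPM in the others. Neither gene was called in a comparison that uses these groups.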

How the results depend on the processing

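The counts here are calls summed over the 10 clock genes and the comparisons of a kind. Shares of all genes are for fits over all 40 libraries, and none is given for fits without vehicle replicate 3. With the replicate number as a block, the calls against vehicle went from 7 to 19 of 90 (all genes, from 7.21% to 15.4%), and to 14 without vehicle replicate 3 as well. Calls for RNO added to an agonist went from 0 to 2 of 40, and 2 without that library (all genes, 0.391% to 1.87%). Calls for interactions went from 0 to 2, and 2 (0.0516% to 2.07%), and for ONO against vilanterol from 0 to 2 of 20, and 2 (1.07% to 3.42%). For the concentration steps they went from 2 to 3, and 5 (1.60% to 4.12%), and for agonists against RNO from 5 to 7, and 7 (7.45% to 13.4%). With only the groups compared in the fit, 4 calls against vehicle and 1 for the steps were made, with fewer residual degrees of freedom. Leaving out each library in turn gave 5 (without vehicle replicate 3) to 10 (without vehicle replicate 1) calls against vehicle, 2 (without RNO replicate 4) to 6 for agonists against RNO, 1 to 2 for the steps, and 0 to 0 for the other kinds. With 1 nM ONO and RNO against vehicle, the block took the calls among the 31 further genes from 1 to 6 (all genes, 3.45% to 10.0%). Where numbers did not pair the groups, the block gave adjusted p = 3.86e-05 for PER1 and 0.038 for NR1D2 with 1 nM ONO and RNO against vehicle, 0.014 for ARNTL with vilanterol and RNO against RNO, and 0.00531 for the BHLHE40 interaction at 1 uM ONO. The 2 calls of NR1D2 were lost when libraries were rescaled to equal medians (adjusted p = 0.0976 and 0.11), and in the same setting ARNTL with vilanterol and RNO against RNO passed (0.0471), as did PER2 with vilanterol and RNO against vehicle (0.0399). Among changes called with or without the block, none reversed its direction in the settings run. Without vehicle replicate 3, 15 of 90 changes against vehicle, none of them called, turned sign, the largest being BHLHE40 with 1 uM ONO (0.11 to -0.09), with CLOCK turning in 6 treatments and PER1 with 0.1 nM ONO going from 0.03 to -0.07. The cause of these shifts was not tested. Every library correlated best with its own replicate number, in 40 of 40. Depth is unknown, so low genes such as PER2 and NR1D1 have no counting error, and the replicates limit what could be called.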
